A study of Mus musculus with 9 samples.

Results

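The transcripts of 10 genes of the piRNA pathway were followed in mouse round spermatids (RS) in which lactate dehydrogenase (LDH) was inhibited with or without added L-2-hydroxyglutarate (L-2HG). The 10 genes were chosen by name: Piwil1 and Piwil2, Mael, the Tudor domain genes Tdrd1, Tdrd5, Tdrd6, Tdrd7, Tdrd9 and Tdrkh, and the helicase gene Mov10l1. They are 10 of the 55414 genes in the count table, and all 10 were among the 25128 genes with enough reads to be tested. Changes were small: Piwil1 rose 1.20-fold with oxamate, Piwil2 and Tdrd6 rose 1.22-fold and 1.18-fold with both compounds against vehicle, and the other 7 genes passed the threshold in no comparison.

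RS cells were sorted by tdTomato brightness and cell size from testes of adult Stra8-Tom mice, in which a Stra8-driven Cre switches on tdTomato in the germ line. The labels give their genotype as WT. Cells of all 3 groups were kept for 24 h in 0.15% DMSO. The study's methods describe oxamate as dissolved in water and say that untreated cells were given matching solvent volumes. The vehicle group thus received solvents only. The oxamate group also received 24 mM oxamate, an inhibitor of all LDH isoforms, and the remaining group received 24 mM oxamate together with 0.3 mM octyl-L2HG, an ester of L-2HG that enters cells. Each group has 3 polyA-selected libraries with 32339533 to 39888396 counted reads each. Vehicle libraries carry the numbers 1 to 3, oxamate libraries 4 to 6 and those with both compounds 7 to 9. The study describes the incubations as triplicates, and no source used here says whether they held cells of separate mice, so p-values measure only the spread between these libraries, which may be technical. Within groups, the counts of oxamate library 4 were the farthest from those of its neighbours, at 18.7 and 23.3 times the difference that sampling noise alone gives (chi-square divided by its degrees of freedom) from libraries 5 and 6, which had 2.1 between them. Vehicle library 1 stood apart less, with 11.9 and 11.3 against 6.48 between libraries 2 and 3, and without it 1 call among the 10 genes between 2 groups was lost, that of Piwil1 with oxamate. For the 10 genes, the main values that move with library 4 are also given without it.

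PIWI proteins are Argonaute proteins of the germ line that carry small piRNAs and use them to find and cut or silence complementary RNA, above all that of transposons. Pachytene spermatocytes and round spermatids hold a large wave of piRNAs of their own, together with the chromatoid body, a perinuclear RNA granule in which PIWI proteins, helicases and Tudor proteins gather. Tudor domains bind methylated arginines, and the Tudor proteins use them to dock on the arginine-rich tails of PIWI proteins and hold the granule and the processing machinery together.

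The start regions of the genes are shown first because A-MYB, the product of Mybl1, is known as the transcription factor that switches on pachytene piRNA genes and several genes of the pathway, and Mybl1 transcripts differed among the groups. RefSeq promoters of build GRCm38.p6, each running from 250 bases before a start site to 50 bases after it, were at hand for 8 of the 10 genes, all but Piwil2 and Tdrd6, with 12 promoters in all. The letters AACNGNC, a core of the site that MYB proteins bind, were searched for on both strands. The promoters printed are those of Piwil1, of Tdrd9, whose levels had the highest correlation with those of Piwil1 over the 9 libraries, and of Mael, whose levels had the lowest correlation with them. They are written in the direction of transcription, with the matches in capitals.
Piwil1, chr5:128735996-128736295, plus strand: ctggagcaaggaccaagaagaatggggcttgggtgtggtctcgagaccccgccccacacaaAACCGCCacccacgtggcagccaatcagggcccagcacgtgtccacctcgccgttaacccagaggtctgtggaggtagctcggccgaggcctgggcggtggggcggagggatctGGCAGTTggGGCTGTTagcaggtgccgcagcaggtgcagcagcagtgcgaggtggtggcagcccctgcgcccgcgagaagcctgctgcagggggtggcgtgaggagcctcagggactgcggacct
Tdrd9, chr12:111971309-111971608, plus strand: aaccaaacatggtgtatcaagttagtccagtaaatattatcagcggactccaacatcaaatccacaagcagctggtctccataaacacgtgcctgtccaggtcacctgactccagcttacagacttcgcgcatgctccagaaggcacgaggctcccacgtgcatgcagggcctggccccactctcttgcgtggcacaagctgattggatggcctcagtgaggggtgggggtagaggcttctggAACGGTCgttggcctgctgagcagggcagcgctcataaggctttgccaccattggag
Mael, chr1:166238695-166238994, minus strand: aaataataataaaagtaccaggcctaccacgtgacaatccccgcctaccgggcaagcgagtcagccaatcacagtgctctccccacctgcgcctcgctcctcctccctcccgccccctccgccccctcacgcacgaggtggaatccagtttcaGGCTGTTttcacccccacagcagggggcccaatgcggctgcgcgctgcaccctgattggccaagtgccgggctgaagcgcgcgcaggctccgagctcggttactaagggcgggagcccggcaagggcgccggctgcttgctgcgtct

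The Piwil1 promoter held 3 matches, which began 189, 75 and 66 bases before the start site. The Tdrd9 promoter held 1 match 7 bases before the start, and the Mael promoter 1 match 97 bases before it. Of the 12 promoters of the 8 genes, 10 held a match, at least 1 for each gene, where 32.8% of the 32851 promoters in the RefSeq table did. The 12 promoters held 3 to 48 CpG pairs each, where the median promoter had 7, and they differ in base composition, with a GC content from 45.0% to 76.0% around a median of 52.7% for all promoters. The 3 other motifs searched were found in fewer of the 12: the cAMP response half-site TGACG in 3 of the 12 promoters, where 20.8% of all promoters held it, the RFX half-site GTTGCNA in 1, where 10.4% did, and TATAAA in 2, where 13.6% did. Of the 15 AACNGNC matches, 1 overlapped a match of another motif. A match says only that the letters are there, and whether A-MYB acts on these genes in these cells was not tested.

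Levels of the 10 genes spanned a wide range. Per length of transcript, Mael was by far the most abundant, with 1209 ± 53.3 CPM per kilobase (SD, n = 3; CPM are counts scaled to library size) in vehicle, which was rank 10 of 25027 genes with a known length. Tdrd6 had 286.3 ± 16.9 and Tdrd7 157.4 ± 2.08 CPM per kilobase. These 3 genes code for a germ cell protein of the piRNA granules and for the main structural Tudor proteins of the chromatoid body. Tdrd9, a Tudor protein that is also an RNA helicase, followed with 21.77 ± 0.617, and then Piwil1 with 8.406 ± 0.113, Tdrd1 with 6.324 ± 0.0897 and Piwil2 with 5.629 ± 0.135 CPM per kilobase. Tdrkh had 2.716 ± 0.143, Tdrd5 2.639 ± 0.204 and Mov10l1 2.254 ± 0.0453. Each gene down to Piwil2 lay apart from its neighbours beyond the range of the vehicle libraries, whereas Tdrkh and Tdrd5 overlapped, since Tdrkh ran from 2.559 to 2.841 and Tdrd5 from 2.476 to 2.868. The order of the first 5 genes was the same in all 3 groups. Between Tdrd1 and Piwil2 it was not, because Piwil2 stood at 6.224 ± 0.926 with oxamate and at 6.869 ± 0.24 with both compounds, against 6.098 ± 0.261 and 6.39 ± 0.131 for Tdrd1.

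**Figure D1:**
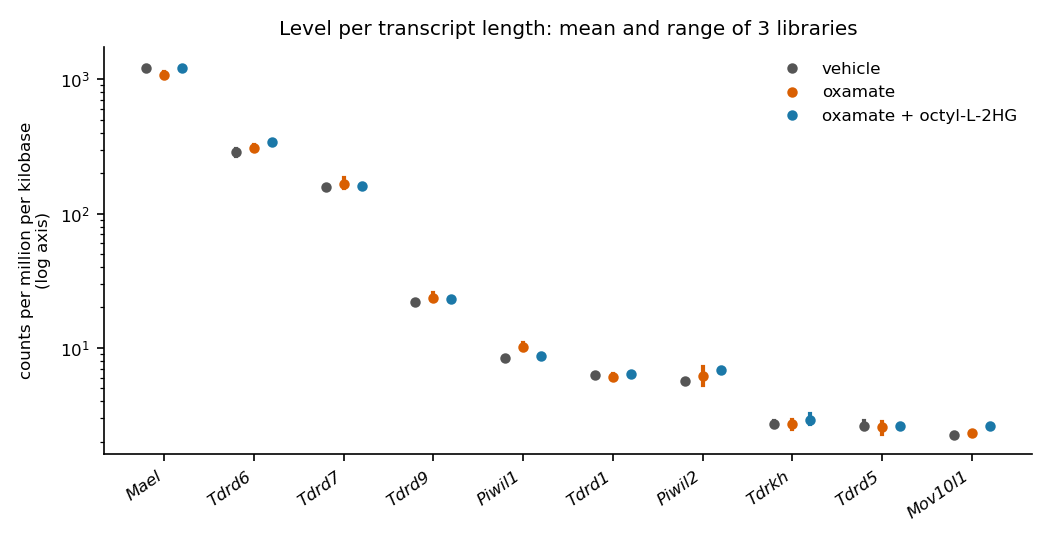
CPM per kilobase of transcript on a log axis for the 10 genes, ordered by their vehicle level, with the mean (point) and the range (line) of the 3 libraries of each group. Mael, Tdrd6 and Tdrd7 stood at 1209, 286.3 and 157.4 in vehicle, and the lowest gene, Mov10l1, at 2.254.

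The 10 genes together held 0.498% ± 0.00227 (SD, n = 3) of all counted reads in vehicle, 0.492% ± 0.00485 with oxamate and 0.516% ± 0.00489 with both compounds. Mael and Tdrd6 made up between 80.78% and 84.46% of the reads of the 10 genes in each library, so a share over the genes is chiefly a share of these 2.

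Piwil1 codes for MIWI, the PIWI protein of late spermatocytes and round spermatids that carries pachytene piRNAs. Its levels are given as normalized counts, that is, reads divided by a size factor per library. They were 1201, 1224 and 1215 in the 3 vehicle libraries. With oxamate they were 1540.4, 1403 and 1405, and with both compounds 1290.4, 1319 and 1239. All 3 oxamate libraries lay above all vehicle libraries and above all libraries with both compounds, while the libraries with both compounds lay just above vehicle in normalized counts and overlapped it in CPM per kilobase (8.52 to 8.972 against 8.325 to 8.535). The vehicle libraries were tight, with a coefficient of variation of 0.9% where the median of genes with at least 100 normalized counts was 6.6%. The log2 fold change with oxamate was 0.26 (SE 0.0708, 95% interval 0.11 to 0.41), a rise of 1.20-fold, with an adjusted p = 0.032 in the quasi-likelihood test of edgeR (Benjamini-Hochberg over all genes tested). Against oxamate alone, both compounds gave a log2 fold change of -0.20 (SE 0.071, interval -0.35 to -0.06), which did not pass the threshold (adjusted p = 0.0688). This step was called in 3 of 8 other fits and in 0 of the 9 fits that leave out a library. Without oxamate library 4 it was -0.15. Both compounds against vehicle gave 0.06 (SE 0.0712, interval -0.09 to 0.21, adjusted p = 0.651). Across the 3 groups Piwil1 was called as differing, with an adjusted p of 0.0216, a call that was lost without vehicle library 3 (adjusted p = 0.0632) or without library 8 (adjusted p = 0.051). Its rise with oxamate was close to the threshold. Without oxamate library 4, the highest of the 9, the log2 fold change was 0.21 and still called, and it was also called without oxamate library 6, but leaving out any of the other 7 libraries ended the call, with adjusted p between 0.0379 and 0.0976 over the 9 fits. It was 0.17 and not called once trends with transcript length and GC content were removed, and not called when only vehicle and oxamate libraries were fitted.

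Piwil2 codes for MILI, the PIWI protein present from fetal germ cells through to round spermatids. Normalized counts were 1022, 972 and 989.99 in vehicle. With oxamate they were 1256, 1086 and 946, and with both compounds 1189, 1269 and 1238. The libraries with both compounds all lay above vehicle, and the oxamate libraries were spread across both groups, with a coefficient of variation of 14.1%. Piwil2 rose with both compounds against vehicle, with a log2 fold change of 0.29 (SE 0.088, interval 0.10 to 0.47), or 1.22-fold, and an adjusted p of 0.0255 from the same test. Oxamate alone gave 0.15 (SE 0.0881, interval -0.04 to 0.33, adjusted p = 0.427) and octyl-L2HG against oxamate 0.14 (SE 0.0879, interval -0.04 to 0.32, adjusted p = 0.364). Both steps rested on single oxamate libraries: the oxamate effect was 0.03 without library 4 and 0.24 without library 6, and the octyl-L2HG effect was 0.04 without library 6, none of them called. Any difference among the 3 groups had an adjusted p of 0.0618, which was 0.00114 without oxamate library 4 and 0.0198 without library 6, and it was called in 6 of 7 other fits. The rise with both compounds was not called without vehicle library 2 or 3 or without library 7, 8 or 9, where its log2 fold change was between 0.27 and 0.32, or with libraries scaled by total counts alone (0.22). Without oxamate library 4, Piwil2 stood 0.26 higher (log2) with both compounds than with oxamate, which was called (adjusted p = 0.0116).

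Counts of both PIWI genes can be set against each other within a library, where no scaling enters. There were 1.22 ± 0.0415 Piwil1 reads for each Piwil2 read in vehicle (SD, n = 3), 1.34 ± 0.135 with oxamate and 1.04 ± 0.0421 with both compounds. The 3 libraries with both compounds, from 1.001 to 1.085, lay below all 6 others, which began at 1.176. Vehicle and oxamate overlapped in this ratio. The ratio was chosen once values had been seen, so it is given with no test.

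**Figure D2:**
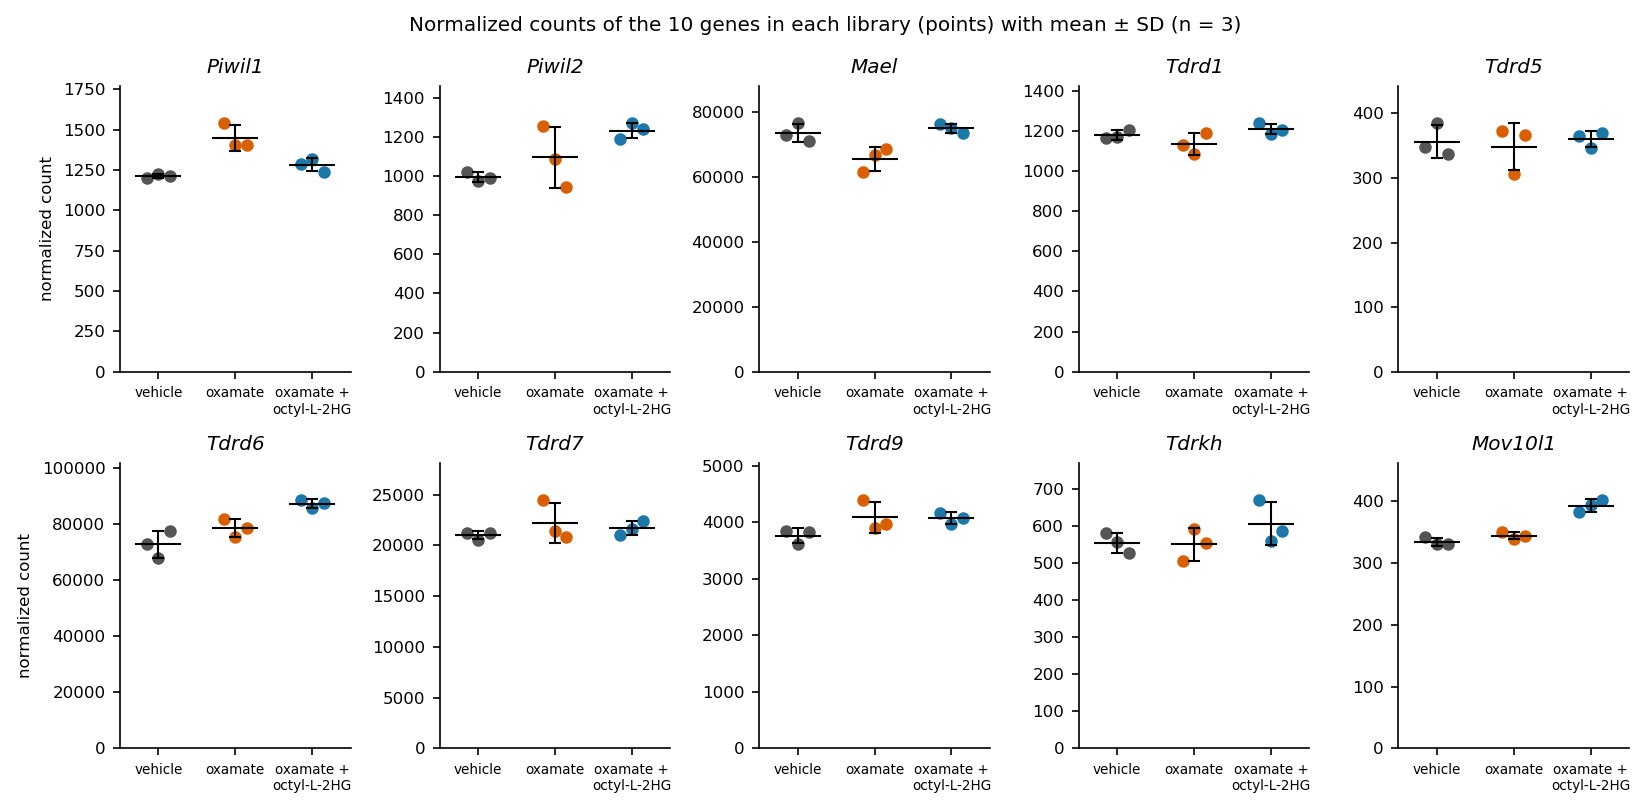
Normalized counts of the 10 genes in each library (points; linear axes from 0) for vehicle, oxamate and oxamate with octyl-L2HG, with the mean and SD of 3 libraries. Piwil1 was highest in the 3 oxamate libraries (1403 to 1540.4), Mael lowest in them (61516 to 68606), and Tdrd6 highest in the libraries with both compounds (85484 to 88531).

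Mael codes for Maelstrom, a protein of germ granules that is needed for transposon silencing and for piRNAs of meiotic cells. In vehicle its normalized counts were 72838, 76485 and 71152. With oxamate they were 61516, 66750.4 and 68606, and with both compounds 76397, 74937 and 73524. The oxamate libraries were all below the other 6, and the other groups overlapped. The log2 fold change was -0.16 with oxamate (SE 0.0598, interval -0.28 to -0.04, adjusted p = 0.145) and 0.17 for octyl-L2HG against oxamate (SE 0.0598, interval 0.04 to 0.29, adjusted p = 0.0793), so neither step was called by edgeR's quasi-likelihood test. With both compounds the level differed from vehicle by 0.01 (SE 0.0598, interval -0.12 to 0.13). At both steps the group means moved opposite to those of Piwil1, with 73490.0, 65620.0 and 74950.0 where Piwil1 had 1213, 1450.0 and 1283, while both compounds left both means slightly above vehicle. The step from oxamate to both compounds was called in 6 of the 8 other ways of fitting all libraries or the groups compared, DESeq2 among them, with log2 fold changes from 0.12 to 0.22 over the 8. Of the 9 edgeR fits that leave out a library, only 1 called this step, with adjusted p up to 0.207. Without oxamate library 4, the lowest of the 9, the step was 0.13, and the oxamate effect was -0.12.

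Tdrd6 codes for a large protein of many Tudor domains that is needed to build the chromatoid body. Normalized counts were 72930.4, 67749 and 77353 in vehicle. With oxamate they were 81558, 75222 and 78520.1, and with both compounds 88531, 85484 and 87469. The libraries with both compounds lay above all 6 others, while oxamate overlapped vehicle. Tdrd6 rose with both compounds against vehicle by 1.18-fold, a log2 fold change of 0.24 (SE 0.0611, interval 0.11 to 0.37, adjusted p = 0.00766 from the same test). This was the smallest adjusted p among the 10 genes in any of these comparisons, and the call held in each of the 9 fits that leave out 1 library (log2 fold change 0.20 to 0.30) and each of 8 other fits (0.16 to 0.29). Without vehicle library 2 it lay at the threshold, with an adjusted p that rounds to 0.05. Each step of the rise was smaller and not called: 0.11 with oxamate (SE 0.0611, interval -0.01 to 0.24, adjusted p = 0.35) and 0.13 for octyl-L2HG against oxamate (SE 0.0611, interval -0.0008 to 0.25, adjusted p = 0.215). Without oxamate library 4 the step with octyl-L2HG was 0.16 and called (adjusted p = 0.0408). With trends of transcript length and GC content removed, the oxamate step was 0.0035 and the octyl-L2HG step 0.16 and called. Both steps were called with the first residual component as a covariate. That component is drawn from the spread within groups of these same libraries. The fit with it called 3864 of all genes with oxamate where the main fit called 1303, so its calls carry little weight. Any difference among the groups had an adjusted p of 0.0203, and that call was lost without vehicle library 2 (adjusted p = 0.087) or without library 7, 8 or 9 (adjusted p = 0.0796, 0.0649 and 0.0789).

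Mael and Tdrd6 had nearly equal counts in vehicle, at ranks 16 and 17 of all genes by reads. The number of Tdrd6 reads for each Mael read was 0.991 ± 0.101 in vehicle (SD, n = 3), 1.20 ± 0.11 with oxamate and 1.16 ± 0.0248 with both compounds. The treated libraries all lay above vehicle, with 1.127 to 1.326 and 1.141 to 1.19 against 0.8858 to 1.087. The treated groups overlapped each other. This ratio, too, was chosen from values already seen.

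**Figure D3:**
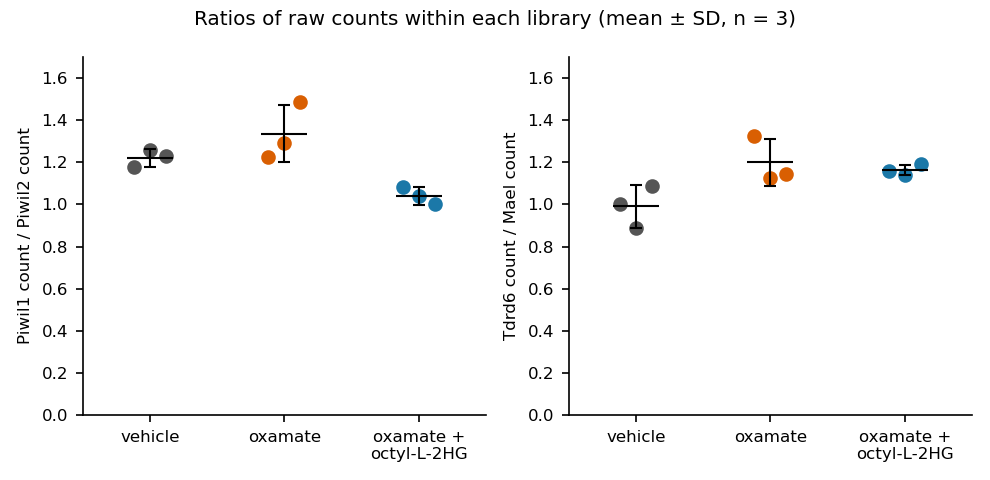
Reads of Piwil1 for each read of Piwil2 (left) and of Tdrd6 for each read of Mael (right) in each library, with the mean and SD of 3 libraries per group, on axes from 0. Piwil1 to Piwil2 was lowest with both compounds (1.001 to 1.085), and Tdrd6 to Mael was lowest in vehicle (0.8858 to 1.087).

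Tdrd7 codes for a further chromatoid body protein, which keeps the granule in shape and is also known from the lens. Normalized counts were 21235, 20568 and 21263 in vehicle, 24489.5, 21431 and 20785 with oxamate, and 21032, 21626 and 22434 with both compounds. The groups overlapped, and oxamate library 4 was the highest of the 9. Log2 fold changes were 0.09 with oxamate, -0.06 for octyl-L2HG against oxamate and 0.02 for both compounds against vehicle, each with an SE of 0.0676 and none called. Without library 4 the oxamate effect was 0.01 and the octyl-L2HG effect 0.02.

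Tdrd9 codes for a Tudor protein with a helicase domain that takes part in transposon silencing. It had 3841, 3617 and 3834 normalized counts in vehicle, 4398, 3892 and 3966 with oxamate, and 4173, 3972 and 4079.6 with both compounds. All treated libraries were above all vehicle libraries, by little. The log2 fold changes against vehicle were 0.12 with oxamate (SE 0.0672, interval -0.02 to 0.26, adjusted p = 0.367) and 0.09 with both compounds (SE 0.0673, interval -0.05 to 0.23, adjusted p = 0.39), and neither was called. Without oxamate library 4 the oxamate effect was 0.06. Octyl-L2HG against oxamate gave -0.03 (SE 0.0673), not called, and 0.03 without library 4.

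Tdrd1, a Tudor partner of MILI that links it to the granules between mitochondria, overlapped between the groups in every comparison. Normalized counts were 1164, 1168 and 1206 in vehicle, 1128, 1084 and 1189 with oxamate, and 1238, 1186 and 1205 with both compounds. The log2 fold changes were -0.05 (SE 0.0698, interval -0.20 to 0.09), 0.07 (SE 0.0701, interval -0.08 to 0.21) and 0.02 (SE 0.0698, interval -0.13 to 0.16) in the same order of comparisons as for Tdrd7.

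Tdrd5, which is needed for chromatoid body assembly and for selecting pachytene piRNA precursors, had 347, 385 and 337 normalized counts in vehicle, 372, 307 and 366 with oxamate and 365, 347 and 369.8 with both compounds. No comparison of Tdrd5 gave a log2 fold change beyond 0.03 in size, with intervals from -0.23 to 0.17 for oxamate, -0.18 to 0.23 for octyl-L2HG and -0.20 to 0.20 for both against vehicle. Without oxamate library 4 the oxamate effect was -0.09 and the octyl-L2HG effect 0.08.

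Tdrkh anchors the trimming of piRNA precursors at the mitochondrial surface. It had 581, 558 and 528 normalized counts in vehicle, 505, 593 and 555 with oxamate, and 672, 560.2 and 587 with both compounds, and its groups overlapped in every comparison. Log2 fold changes were -0.01 with oxamate, 0.11 for octyl-L2HG and 0.10 for both against vehicle, with SEs from 0.0887 to 0.0892. The first of these was 0.05 and the second 0.06 without oxamate library 4. Its counts carry a further doubt: in the GENCODE vM21 annotation of GRCm38, 2255 of its 6142 exon bases are shared with Oaz3 on the opposite strand. Oaz3, a spermatid antizyme gene named here only after its values were seen, had 18470.0, 17600.0 and 15970.0 normalized counts in vehicle, oxamate and both compounds. It was called lower with both compounds against vehicle (log2 fold change -0.23, adjusted p = 0.00631 by edgeR). The study names a stranded library kit for its cultured cells. The strand setting of the read counting is not given in the sources used here, so reads of the shared bases may have been given to either gene or dropped. Tdrd5 shares 176 exon bases with an antisense gene, and the other 8 genes share none.

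Mov10l1 codes for the RNA helicase that binds piRNA precursors and feeds them to the first cut. Normalized counts were 342, 331 and 332 in vehicle, 349.6, 339 and 344 with oxamate and 383, 394 and 403 with both compounds. The libraries with both compounds lay above the other 6, and the spread within groups was small, with coefficients of variation of 1.9%, 1.6% and 2.5%. The log2 fold change was 0.21 for both compounds against vehicle (SE 0.0843, interval 0.04 to 0.39, adjusted p = 0.09) and 0.17 against oxamate (SE 0.0847, interval -0.01 to 0.34, adjusted p = 0.243), and neither was called. The first of these was called in 3 of 8 other fits and without oxamate library 4. Oxamate alone gave 0.04 (SE 0.0848, interval -0.13 to 0.22).

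**Figure D4:**
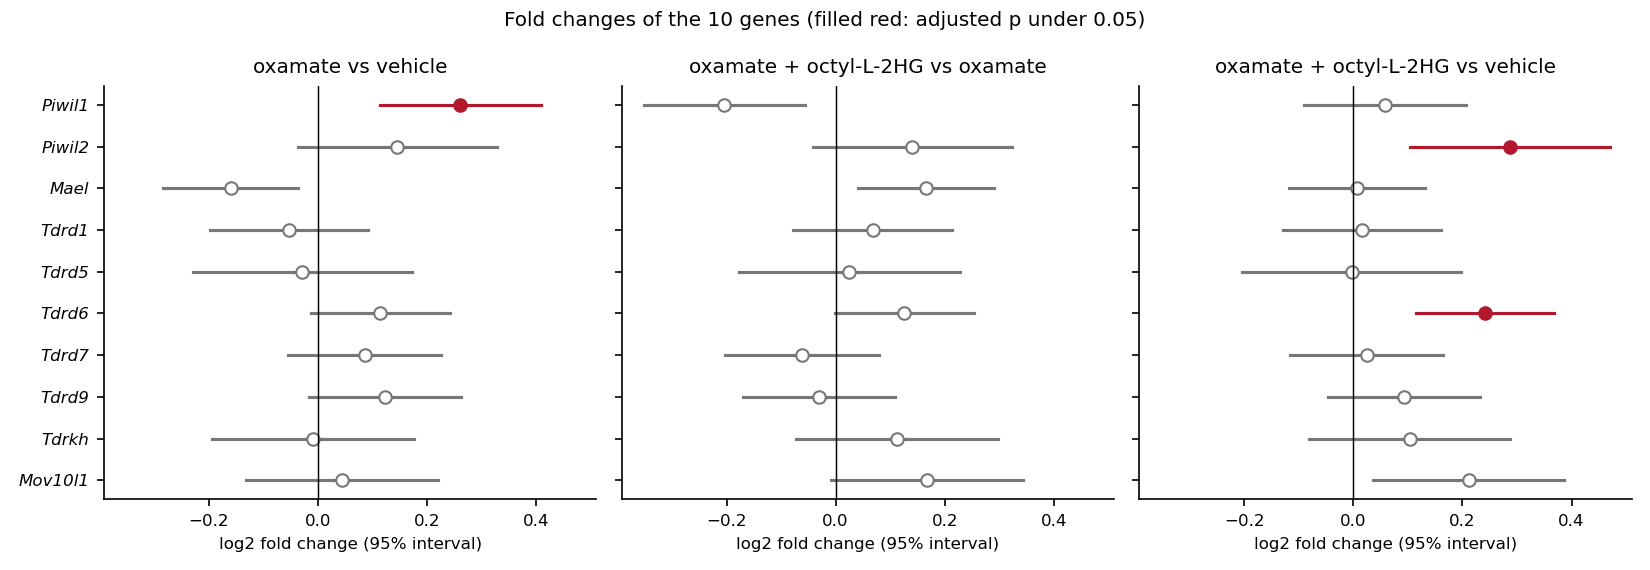
Log2 fold changes of the 10 genes with 95% intervals in the 3 comparisons, filled red where the adjusted p was under 0.05. Piwil1 was called with oxamate (0.26), Piwil2 (0.29) and Tdrd6 (0.24) with both compounds against vehicle, and none in the middle comparison.

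Counted over the 10 genes, oxamate raised 1 (Piwil1) and lowered none, where it raised 3.97% and lowered 1.22% of all genes tested. Octyl-L2HG added to oxamate gave no call among the 10, where 3.18% of all genes were called higher and 8.06% lower. At an unadjusted p under 0.05 there were 2, Piwil1 lower and Mael higher, where 23.6% of all genes lay under it. DESeq2 called 1, Mael, where it called 17.0% of the 16846 genes to which it gave an adjusted p. Both compounds raised 2 of the 10 against vehicle (Piwil2 and Tdrd6) and lowered none, where 7.48% of all genes were raised and 10.6% lowered. Any difference among the groups was called for 2 of the 10 (Piwil1 and Tdrd6) and for 19.8% of all genes, so the share of the 10 was close to that of the table as a whole. All 10 have over 100 normalized counts, and among the 10715 genes with a mean of at least 100 the share called in this test was 33.5%. Of these 10715 genes oxamate raised 8.08%, and 19.8% were called when octyl-L2HG was added. Both compounds against vehicle raised 16.0% of them and lowered 13.6%. The comparisons share groups and are not independent of each other.

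Counted on CPM with the scaling of the fit, the libraries of one group lay all on one side of the other group's for 3 of the 10 genes with oxamate against vehicle (Piwil1 and Tdrd9 higher, Mael lower), where this held for 21.4% of all genes. It held for 4 of the 10 when octyl-L2HG was added to oxamate (Mael, Tdrd6 and Mov10l1 higher, Piwil1 lower), against 28.1% of all genes, and for 4 of the 10 with both compounds against vehicle (Piwil2, Tdrd6, Tdrd9 and Mov10l1, all higher), against 36.1%. In normalized counts Piwil1 lay apart in this last comparison as well. The median log2 fold change of the 10 genes was 0.07, 0.09 and 0.08 in these comparisons, and that of all genes tested -0.01, -0.04 and -0.05. All 10 genes had over 100 normalized counts, and genes with a mean at or above that level had medians of 0.01, 0.01 and 0.03. Fold changes of the 10 ran from -0.20 to 0.29, and the largest was the 1.22-fold rise of Piwil2. With libraries scaled by total counts alone, the small differences of both compounds from vehicle turned negative for Piwil1, Mael, Tdrd1 and Tdrd7.

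Over the 9 libraries, on the scale of log2 CPM, Piwil1 was most like Tdrd9 among the other 9 genes (Pearson r 0.69 over 9 libraries) and least like Mael (-0.87). Tdrd6 was most like Mov10l1 (0.84). Of the 45 pairs of the 10 genes 31 had a positive r, with a median of 0.19. The libraries share their treatment and, in oxamate library 4, an unusual library, so these values describe the 9 libraries. With group means taken off, Piwil1 was closer to Piwil2 (0.77) and Tdrd7 (0.69) than to Tdrd9 (0.63), and Piwil1 and Mael had -0.51, Tdrd6 and Mov10l1 0.20, and Mael and Tdrd6 -0.84.

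The other genes of the pathway give the setting for these values. Of 22 further piRNA genes 21 were tested, and Piwil4, with 7 reads in all, was not. Oxamate raised 1 of the 21, Mybl1. Octyl-L2HG added to oxamate raised 2 (Ddx4 and Mybl1) and lowered 2 (Gtsf1l and Dnmt3l), and both compounds against vehicle raised 2 (Mybl1 and Tcfl5) and lowered 2 (Pld6 and Gtsf1l). The genes called made up 4.76%, 19.0% and 19.0% of the 21, against 5.19%, 11.2% and 18.0% of all genes tested and 9.67%, 19.8% and 29.5% of genes with a mean of at least 100 normalized counts. The median log2 fold changes of the 21 were 0.04, 0.00 and 0.01.

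Mybl1 had 705, 821 and 798 normalized counts in vehicle, 866, 988 and 999 with oxamate and 1322, 1288 and 1312 with both compounds. It was raised at each step without overlap, with log2 fold changes of 0.30 (SE 0.0803, adjusted p = 0.0299 by edgeR) with oxamate and 0.43 (SE 0.0792, adjusted p = 0.00103) when octyl-L2HG was added, which sum to 0.73 (SE 0.0797, adjusted p = 1.5e-06). The oxamate step was called in only 2 of 9 fits that leave out a library, with adjusted p up to 0.142, and the other steps in all 9. Tcfl5, which codes for a transcription factor of the same meiotic circuit, had a log2 fold change of 0.27 (SE 0.0596, adjusted p = 0.00254) with both compounds against vehicle.

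Ddx4, the germ granule helicase also known as MVH or Vasa, had 28760.0, 27250.0 and 33370.0 normalized counts in vehicle, oxamate and both compounds, and octyl-L2HG raised it against oxamate by 0.27 on the log2 scale (SE 0.0707, adjusted p = 0.0165). Pld6, a mitochondrial enzyme of piRNA precursor cutting, was lower with both compounds than with vehicle, with a log2 fold change of -0.45 (SE 0.1219, adjusted p = 0.0124). Gtsf1l, a small zinc finger protein of a family that assists PIWI cutting, had -0.33 (SE 0.061, adjusted p = 0.000504) in the same comparison. Dnmt3l, a cofactor of germ line DNA methylation, fell from 487.2 to 391.3 normalized counts between oxamate and both compounds (log2 fold change -0.34, SE 0.0862, adjusted p = 0.0119).

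Of 8 further Tudor domain genes tested, oxamate raised 2, Smn1 and Smndc1, which code for proteins of splicing machinery assembly. Octyl-L2HG added to oxamate raised 1 (Tdrd3) and lowered 2 (Akap1 and Smn1), and both compounds against vehicle raised 2 (Tdrd3 and Smndc1) and lowered 1 (Akap1), which made 25.0%, 37.5% and 37.5% of the 8 beside the shares of all genes given above. Smn1 had 343.4 normalized counts in vehicle, 453.9 with oxamate and 363.4 with both compounds, and its log2 fold changes of 0.41 (SE 0.0902, adjusted p = 0.00841) and -0.35 (SE 0.0909, adjusted p = 0.0152) lay in opposite directions. Akap1, which anchors protein kinase A at mitochondria, fell by 0.37 on the log2 scale when octyl-L2HG was added (SE 0.0629, adjusted p = 0.000613). Of 8 further genes of RNA control in germ granules, oxamate raised 3, or 37.5%, where it raised 3.97% of all genes and 8.08% of those with a mean of at least 100: the kinesin gene Kif17 (log2 fold change 0.35, SE 0.0668, adjusted p = 0.0025) and the nonsense-mediated decay genes Upf2 and Smg6 (0.34 and 0.26, adjusted p = 0.0413 and 0.0247). The Upf2 libraries overlapped between oxamate and vehicle. Its call held in 1 of the 9 fits leaving out a library, and that of Smg6 in 4 of 9. Upf1, a further decay gene of this list, had 0.04 and was not called. Octyl-L2HG then lowered Kif17 (-0.24, SE 0.0667, adjusted p = 0.0223) and raised Fyco1, an autophagy adaptor of the chromatoid body (0.34, SE 0.0673, adjusted p = 0.00208). Both compounds against vehicle raised only Fyco1 of these 8 (0.47, SE 0.0673, adjusted p = 3.69e-05). The calls in these comparisons made 25.0% and 12.5% of the 8, where 11.2% and 18.0% of all genes were called. The calls that held in all 9 fits leaving out a library were those of Gtsf1l and Tcfl5 against vehicle, of Akap1 for octyl-L2HG, of Kif17 for oxamate, and of Mybl1 and Fyco1 in both comparisons with octyl-L2HG, and all other calls in these lists were lost in at least 1 of the 9.

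**Figure D5:**
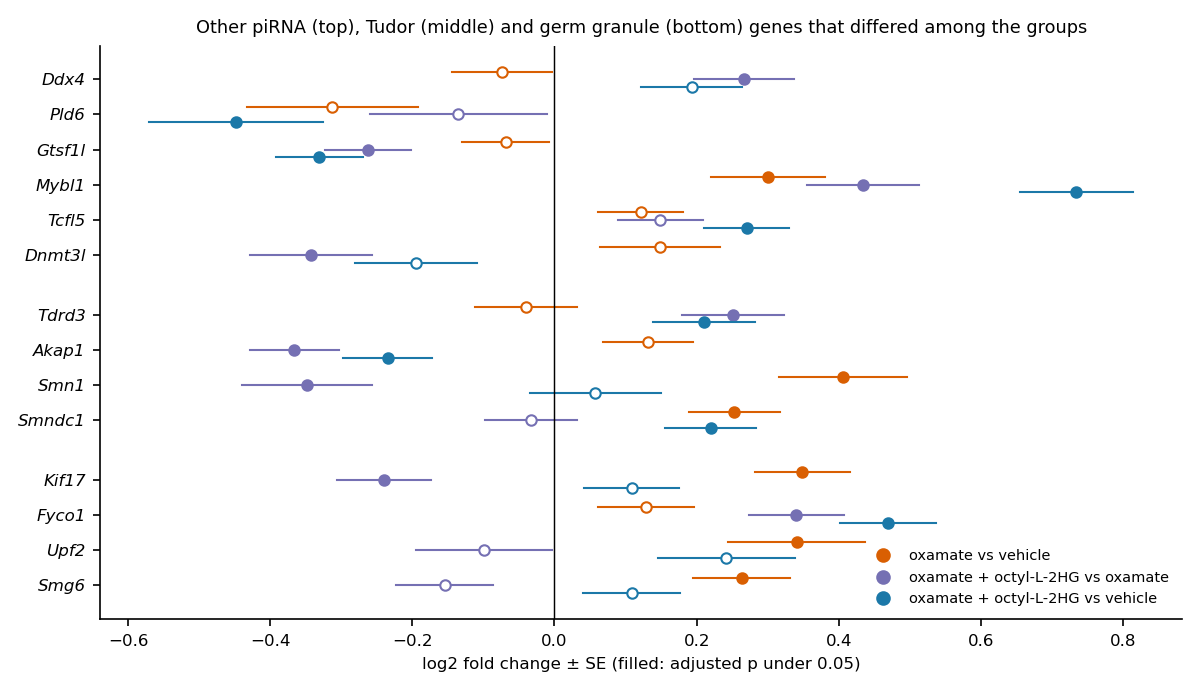
Log2 fold changes with SE of the 14 genes of the further piRNA, Tudor and germ granule lists that were called in a comparison, filled where the adjusted p was under 0.05. Mybl1 lay to the right in all 3 comparisons (0.30, 0.43 and 0.73), and Smn1 and Kif17 were raised by oxamate (0.41 and 0.35) and lowered when octyl-L2HG was added (-0.35 and -0.24).

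The cell type behind these values was checked by marker lists. All 8 RS markers were present, with summed normalized counts of 58540.0 to 59120.0 in vehicle, 55420.0 to 57680.0 with oxamate and 55340.0 to 56440.0 with both compounds. Within this list Prm1 and Tnp1, which package sperm DNA, fell with oxamate (log2 fold changes -0.45 and -0.26) and further with octyl-L2HG (-0.32 and -0.29), and 3 of the 8 were called lower at that step, the third being Catsper3 (-0.22). Both compounds against vehicle gave calls for 6 of the 8, with Prm1 (-0.77), Tnp1 (-0.56), Catsper3 (-0.24) and Tssk1 (-0.20) lower and Spaca7 (0.32) and the acrosome gene Acrv1 (0.25) higher. Of the 8 markers 25.0%, 37.5% and 75.0% were called in the 3 comparisons. The shares were 5.19%, 11.2% and 18.0% of all genes tested. For genes with a mean of at least 100 normalized counts they were 9.67%, 19.8% and 29.5%. The 10 spermatocyte markers, which matter here because spermatocytes also express the pathway, summed to 32670.0 to 35860.0 in vehicle, 32280.0 to 32810.0 with oxamate and 34720.0 to 36120.0 with both compounds, and of them only Sycp2 was called, higher when octyl-L2HG was added (0.37). The oxamate sums overlapped those of vehicle, and no spermatocyte marker was called with oxamate. Any link to Mael, which had its lowest values with oxamate, was not tested. The 8 spermatogonium markers summed to 263.9 to 278.6 in vehicle, 287.8 to 305.8 with oxamate and 274.3 to 291.6 with both compounds. The oxamate sums thus lay above vehicle. None of the 8 was called between 2 groups, and 1 was called for any difference among the groups. Markers of Sertoli cells (32.28 to 53.12, with Fshr at 0), Leydig cells (19.73 to 40.25), myoid cells (48.41 to 98.91, lowest with both compounds) and macrophages (94.31 to 123.6, with Lyz2 at 0) had low sums. The Leydig sums with oxamate (19.73 to 27.63) lay below vehicle (28.43 to 38.21) and both compounds (32.28 to 40.25). No Leydig marker was called. Of the 4 myoid markers Cnn1 was called lower with oxamate (-0.94, adjusted p = 0.0116 by edgeR) and with both compounds against vehicle (-1.52, adjusted p = 0.0001). In RNA of many cells, fewer cells of a type and less RNA per cell cannot be told apart, and the part of these shifts in the values of the 10 genes was not tested. The targets of oxamate were transcribed, with 165400.0, 153500.0 and 149100.0 normalized counts of Ldhc and 45050.0, 41670.0 and 43730.0 of Ldha, none of them called, and under 6 of Ldhb in each library.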

How the data were processed

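Per the sample labels and the study's methods, the authors trimmed the reads with cutadapt 2.10, aligned them with TopHat2 2.1.1 to the mouse genome (GRCm39), counted them per gene with HTSeq 2.01 and deposited the raw counts. Beside these the authors deposited a normalized signal, made by dividing each count by the DESeq2 1.36.0 size factor of its library (0.8675 to 1.1255) and called normalized count here. Sources differ on the sequencing instrument. No column of sample values went unused, and 6250 of the 55414 genes have blank cells in place of counts, while 37089 have reads.

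Genes needed 10 or more counts over the 9 libraries, which 25128 had, and were tested in R 4.3.3 with edgeR 4.0.16: TMM normalization, 1 quasi-likelihood fit of all 9 libraries with robust estimation and the group as the only term, and Benjamini-Hochberg adjustment over all genes with a threshold of 0.05. Replicate libraries differed from each other beyond sampling noise in every pair. Counting error is small at these depths, so the spread between libraries sets the precision. The test was tried on simulated counts that had larger changes than those called among the 10 genes and no shift shared within a library. Its outcome therefore does not bear on changes as small as these. Alternatives were DESeq2 1.42.0, other scalings, filters, thresholds and sets of libraries, a correction for transcript length and GC content (GENCODE vM21, matched for 99.6% of the genes tested; mgcv 1.9.3), the first residual component as a covariate, and each library left out in turn. The residual component was taken from the spread within groups of these same libraries, so the fit with it removes spread by construction. It is counted among the other fits. Levels per length used the same annotation.

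The 10 genes and the lists of further pathway and marker genes were chosen with earlier results of these data known. Named are all 10 genes, at most 8 genes of each further pathway list that passed the threshold between 2 groups, the most similar gene for each of the 10 that differed among the groups, and Ldhc, Ldha and Ldhb. Oaz3 and the marker genes given with values lie outside this rule. They were chosen, like the 2 ratios of genes, once values had been seen. Tdrd15 was not analysed here.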

Additional observations from a re-analysis of the deposited data

How the results depend on the processing

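No paired analysis was possible because the libraries are numbered 1 to 9 with no number shared between groups. For the 10 genes, 510 log2 fold changes were recomputed under 17 other settings: 447 kept their direction and their side of the threshold, 15 lost and 22 gained a call, and 26 changed sign, all of them values that were not called. The number of the 10 genes called with oxamate against vehicle (1) was 0 at an adjusted p under 0.01, with only the groups compared and with length and GC trends removed, 2 at an unadjusted p under 0.05 and 4 with the residual component as a covariate. For octyl-L2HG added to oxamate (0) it was 2 at the unadjusted p, 3 with length and GC trends removed, 4 with the residual component, and 1 with DESeq2, DESeq2's size factors, total counts, no filter or edgeR's filterByExpr. For both compounds against vehicle (2) it was 1 at the stricter threshold and with total counts, and for any difference (2) it was 0 at the stricter threshold, 1 with total counts, 4 with no filter, filterByExpr, length and GC trends removed or DESeq2, 5 at the unadjusted p and 6 with the residual component. Leaving out each library gave 0 to 1, 0 to 2, 1 to 3 and 0 to 3 in the same order. Called genes of the 3 further lists numbered 2, 4, 4 and 7 at the stricter threshold, 13 at the unadjusted p in each comparison with vehicle, 2 for oxamate with only the groups compared, and 16 for oxamate and 17 for both compounds with the residual component, and from 2 to 12, 4 to 11, 5 to 11 and 8 to 18 without 1 library. Over all genes, the stricter threshold left 602, 1261, 2607 and 2774, the unadjusted p gave 4348, 5934, 7527 and 7910, and the residual component 3864, 5700, 7507 and 8783, only the groups compared gave 723 for oxamate, length and GC trends removed 4380 for octyl-L2HG, and leaving out 1 library 659 to 2288, 1396 to 4415, 2970 to 6194 and 3154 to 7328.

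Total counts moved the median of all genes to -0.11 (log2) for both compounds against vehicle, and the share of calls that were higher from 28.3% to 14.3% for octyl-L2HG and from 41.4% to 26.8% for both compounds. With total counts the difference of both compounds from vehicle turned to -0.0055 for Piwil1, -0.0574 for Mael, -0.0483 for Tdrd1 and -0.0387 for Tdrd7, and that of Tdrd5 for octyl-L2HG to -0.0188. With length and GC trends removed it was -0.0236 for Tdrd1 with both compounds, 0.0053 for Tdrd9 with octyl-L2HG and -0.0266 for Mov10l1 with oxamate, and with no filter Tdrd9 had 0.0146. Tdrd5 with both compounds against vehicle had 0.0183 with DESeq2's size factors, 0.0425 with no filter, 0.0099 with filterByExpr, 0.0134 with only the groups compared and 0.0182 with DESeq2. Without 1 library, values ran across 0 for Mael (-0.0047 to 0.042) and Tdrd7 (-0.0052 to 0.0502) with both compounds against vehicle, for Tdrd5 (-0.0867 to 0.0571, -0.0598 to 0.0847 and -0.0301 to 0.0604 in the 3 comparisons), for Tdrd7 (-0.1125 to 0.0194) and Tdrd9 (-0.0641 to 0.0323) with octyl-L2HG, and for Tdrkh (-0.0653 to 0.047) with oxamate. The cause of these shifts was not tested.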
